A study of Mus musculus with 36 samples.

Results

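The EGF receptor, its ligands and genes that regulate it were followed through the transcriptome of mouse embryonic fibroblasts (MEFs) exposed to the synthetic glucocorticoid dexamethasone (Dex). The set was taken by gene name, by a rule that uses no expression value but was written with earlier results of these data known. The set holds 10 of the 55487 genes in the count table. They are the receptor Egfr, the ligands Areg, Ereg, Hbegf, Tgfa, Btc and Nrg1, the inhibitors Errfi1 and Lrig1, and Lrig3, a relative of Lrig1. The 10 genes were all abundant enough to be tested.

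The RNA-seq experiment comprised 36 libraries, 3 for each combination of genotype, treatment and run, from primary MEFs that received vehicle or 1 µM Dex for 5 h. The cells differed in the glucocorticoid receptor (GR): wild type (GRwt/wt), homozygous for the D mutation in the DNA-binding domain (GRD/D), homozygous for the L mutation in the ligand-binding domain (GRL/L), homozygous for both mutations on one allele (GRD+L/D+L), and the knockout (GRko/ko). Both mutations were designed against contacts between receptor monomers, and the vehicle was the solvent of Dex. Run 1 held 24 libraries of GRwt/wt, GRD/D, GRD+L/D+L and GRko/ko, and run 2 held 12 libraries of GRL/L and a further set of GRwt/wt.

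The labels give the strain FVB/NJ for every library, whereas the methods describe the mice intercrossed for the knockout as 129 Sv, so strain and genotype cannot be told apart for GRko/ko. MEFs were cultured from mid-gestation embryos after the head and organs had been taken out, and such cultures can hold other cells. The methods describe 3 cultures per genotype, each from another mouse, but no label ties a replicate number to a culture. Each mutant was compared only with GRwt/wt of its own run, and the 3 mutants of run 1 share the same 6 GRwt/wt libraries. The 2 runs were separate experiments, and run, cultures and depth cannot be told apart.

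The EGF receptor is a receptor tyrosine kinase that pairs with itself or with its relatives when an EGF-like ligand binds, and it signals to the RAS-ERK cascade, among others. Most of its ligands are made as membrane-bound precursors and are released by proteases. Areg (amphiregulin), Tgfa (transforming growth factor alpha), Hbegf (heparin-binding EGF-like growth factor), Ereg (epiregulin) and Btc (betacellulin) bind the EGF receptor, the last 3 of them also ErbB4, and Nrg1 (neuregulin 1) binds ErbB3 and ErbB4. Errfi1, also called Mig6 or Ralt, binds the kinase domain of the active receptor and inhibits it, whereas the leucine-rich transmembrane proteins Lrig1 and Lrig3 act on receptor stability, Lrig1 as an inhibitor. Glucocorticoid hormones act through GR, a nuclear receptor that binds DNA at palindromic response elements as a dimer and also represses genes driven by factors such as AP-1 and NF-κB.

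Positions refer to the mm10 genome (GRCm38, with GENCODE M21 gene models). Ereg (5:91074622-91093646, + strand), Areg (5:91139599-91148432, +) and Btc (5:91357261-91402994, −) are neighbours. Errfi1 lies at 4:150853919-150868892 (+), Egfr at 11:16752203-16918158 (+), Tgfa at 6:86195223-86275719 (+) and Lrig1 at 6:94604529-94700158 (−). Nrg1 lies at 8:31814551-32884029 (−) and Lrig3 at 10:125966168-126015359 (+). Exon bases of Ereg, Tgfa, Nrg1 and Lrig1 overlap a gene on the opposite strand by 118 to 482 bp, and the counting is not stated to have used the strand.

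RefSeq promoter windows (GRCm38.p6), from 250 bases before the start of a transcript to 50 bases past it, were found for 7 of the 10 genes, with 2 windows for Errfi1. The 250 bases before the start are shown, 5′ to 3′ on the gene's strand, for the 2 genes whose transcripts rose with Dex and for Areg, the ligand that fell most. Capitals mark a cAMP response element, TGACGTCA, and a TATA box, TATAAA, both of which were looked for after these sequences had been seen.
Errfi1, chr4:150854820-150855069, + strand: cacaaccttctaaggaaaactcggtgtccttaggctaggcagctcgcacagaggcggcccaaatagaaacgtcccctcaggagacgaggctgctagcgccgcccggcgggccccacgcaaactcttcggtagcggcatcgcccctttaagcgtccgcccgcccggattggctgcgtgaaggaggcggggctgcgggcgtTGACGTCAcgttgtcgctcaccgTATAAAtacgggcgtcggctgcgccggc
Tgfa, chr6:86194972-86195221, + strand: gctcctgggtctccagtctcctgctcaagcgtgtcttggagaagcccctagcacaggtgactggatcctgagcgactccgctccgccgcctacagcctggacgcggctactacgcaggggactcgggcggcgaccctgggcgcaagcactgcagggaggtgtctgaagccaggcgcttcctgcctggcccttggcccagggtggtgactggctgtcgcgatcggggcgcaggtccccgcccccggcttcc
Areg, chr5:91139349-91139598, + strand: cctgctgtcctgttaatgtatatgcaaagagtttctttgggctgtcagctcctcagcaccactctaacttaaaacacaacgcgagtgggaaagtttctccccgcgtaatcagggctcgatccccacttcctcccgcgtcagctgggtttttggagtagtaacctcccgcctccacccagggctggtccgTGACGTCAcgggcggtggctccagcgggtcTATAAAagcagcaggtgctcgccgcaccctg

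Errfi1 and Areg, which moved in opposite directions with Dex, both held these elements in the windows shown, at positions -51 and -28 for Errfi1 and -61 and -31 for Areg, counted from the transcript start to the first base of the element. The cAMP response element occurred in 1.79% and the TATA box in 8.32% of the 32851 mouse windows of this length, and neither was found in the other window of Errfi1 or in those of Egfr, Tgfa, Btc, Lrig1 and Lrig3. Bases past the start in that other Errfi1 window did not match a GENCODE M21 transcript of the gene. None of the 8 windows held a full glucocorticoid response element (AGAACA, any 3 bases, TGTTCT; 0.00913% of all windows), its half-site AGAACA on either strand (19.0%) or the AP-1 motif TGACTCA or TGAGTCA (5.20%). These letters were thus not in these windows, and sequence farther from the starts was not searched.

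The libraries held 15280166 to 28662608 counts. Levels are given as CPM, the count relative to the library total after scaling by edgeR's TMM method, and a gene was called at an adjusted p of at most 0.05 from edgeR's quasi-likelihood test over the 15489 genes tested. Nr3c1, which encodes GR, stood at 67.2 to 74.3 CPM in vehicle-treated GRwt/wt of run 1 and at 15.9 to 18.0 CPM in GRko/ko (log2 fold change −2.08 ± 0.07 SE, adjusted p = 2.44e-23). The known GR target Fkbp5 rose with Dex by 2.58 on the log2 scale in GRwt/wt of run 1, by 1.07 in GRD/D, by 0.99 in GRD+L/D+L, by 3.70 in GRwt/wt of run 2 and by 3.29 in GRL/L, and its value in GRko/ko was −0.02. Tsc22d3 followed the same order, from 3.56 in GRwt/wt of run 2 to 0.47 in GRD+L/D+L and 0.02 in GRko/ko, while Dusp1 rose in GRwt/wt and GRL/L and fell in GRD/D and GRD+L/D+L by 0.40 and 0.31.

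The cultures differed in their content of other cells. All 8 fibroblast markers were detected in every group, with a summed level of 13714 to 29019 CPM. The 8 macrophage markers, none of them at 0, summed to 58.3 to 106 CPM in vehicle-treated GRwt/wt of run 1, 212 to 219.6 CPM in GRD/D, 11.4 to 13.5 CPM in GRD+L/D+L and 991 to 1063 CPM in GRko/ko. They summed to 109 to 124 CPM in GRwt/wt of run 2 and 227 to 275 CPM in GRL/L. In each mutant the 8 markers were called against GRwt/wt of the run. Of all genes, 9.55% were called in GRD/D, 29.9% in GRD+L/D+L, 45.7% in GRko/ko and 11.3% in GRL/L. With Dex in GRwt/wt of run 1 their sum was 67.0 to 105 CPM, within the range of the vehicle libraries. In run 2 the sum was 127 to 137 CPM, above the range of its vehicle libraries. In GRL/L, 5 of the 8 macrophage markers fell and 1 rose with Dex (median −0.31 on the log2 scale), with a sum of 195.8 to 262 CPM. Of all genes, 10.4% were lowered and 8.79% raised there. The 6 cartilage markers summed to 179.9 to 551 CPM in GRko/ko and 18.9 to 21.1 CPM in GRwt/wt of run 1, and the 6 skeletal muscle markers to 126 to 144 CPM in GRD+L/D+L and 26.5 to 32.8 CPM in GRwt/wt. The 6 endothelial markers summed to 9.41 to 12.1 CPM in GRwt/wt of run 1 with vehicle and 17.1 to 18.8 CPM with Dex. The part of these cells in the results was not tested.

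The 8 epithelial markers summed to at most 3.21 CPM in the vehicle libraries but for 1, replicate 6 of GRwt/wt in run 2, which held 48.0 CPM, with 674 counts of Krt14 and 554 of Krt5. Replicate 4 of the Dex libraries of the same group held 101 and 68 counts of these keratins, and the other 4 libraries of GRwt/wt in run 2 held 19 to 27 and 2 to 9. Of these markers 3 could be tested, and all 3 were called lower with Dex in GRwt/wt of run 2, against 16.7% of all genes. These calls include replicate 6 and were not checked without it. In vehicle replicates 4 and 5, Krt14 held 26 and 25 counts, against 101, 19 and 27 with Dex. Krt5 held 4 and 9 counts there, against 68, 2 and 8 with Dex. Run 2 results that rest on replicate 6 are therefore also given without it.

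In vehicle-treated GRwt/wt the most abundant member per length of exon was Hbegf in run 1, at 46.0 ± 1.01 CPM per kb (SD, n = 3), and Errfi1 in run 2, at 21.1 ± 1.58 CPM per kb. Errfi1 (27.2 ± 1.61), Lrig1 (22.9 ± 0.966), Ereg (19.2 ± 0.853) and Egfr (12.3 ± 0.949) followed Hbegf in run 1, each apart from the next by more than their SDs. Lrig3 and Nrg1 stood at 5.09 ± 0.397 and 4.29 ± 0.607 CPM per kb, which lie within their combined SDs, and Areg (1.80 ± 0.678), Btc (0.402 ± 0.129) and Tgfa (0.242 ± 0.0389) were lowest, the last 2 within their combined SDs. The receptor was thus expressed at a moderate level, and 3 of its ligands at a very low one.

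The order of the run 2 cultures was different. After Errfi1 came Lrig1 at 9.87 ± 0.685 CPM per kb, and Hbegf (6.75 ± 0.699), Egfr (6.39 ± 0.0888), Lrig3 (6.11 ± 0.266) and Ereg (5.55 ± 0.566) followed within a narrow band in which neighbours did not differ beyond their SDs. Nrg1 was at 3.04 ± 0.102 CPM per kb, and Areg (0.561 ± 0.210), Btc (0.475 ± 0.0890) and Tgfa (0.345 ± 0.0635) were again last. In the same genotype and treatment Hbegf stood at 222 ± 4.91 CPM in run 1 and at 32.6 ± 3.38 CPM in run 2, in proportion the widest gap of the 10 genes. Levels of the runs were not tested against each other.

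**Figure D1:**
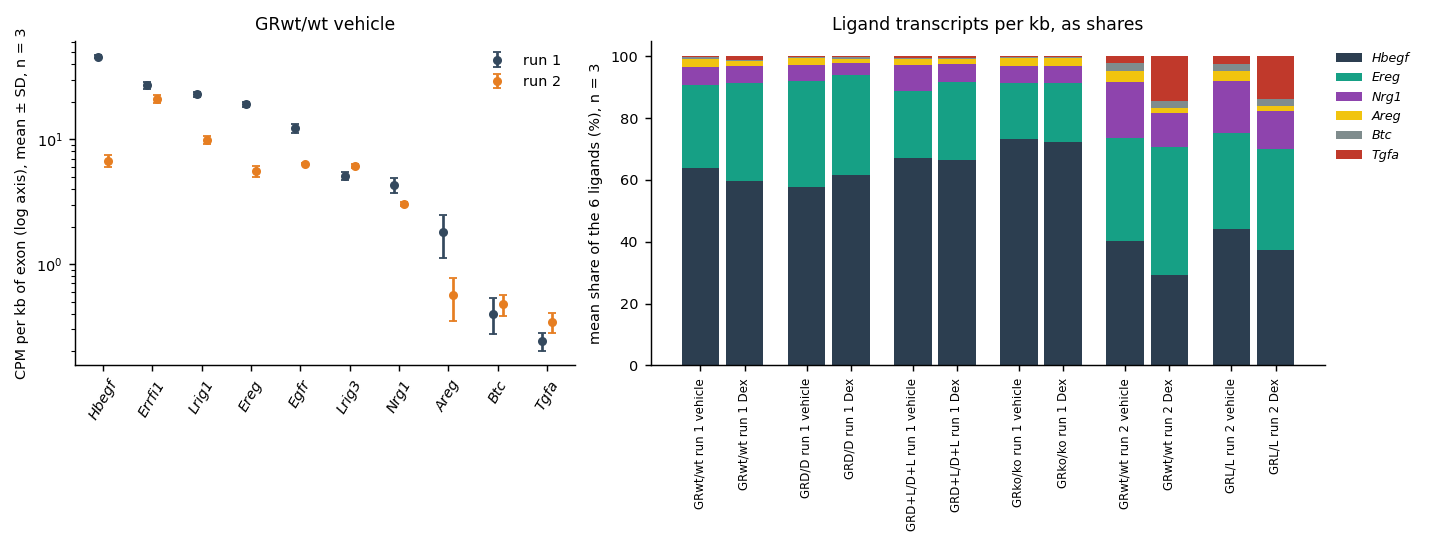
Left, level of the 10 genes in vehicle-treated GRwt/wt of run 1 and run 2, as CPM per kb of exon on a log axis (points, means; bars, SD; n = 3). Right, mean share of each of the 6 ligands in their summed CPM per kb, in percent, for each genotype, run and treatment (n = 3); Tgfa, at the top of each bar, reached 14.4% in GRwt/wt and 14.0% in GRL/L of run 2 with Dex.

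In GRwt/wt, Dex raised the inhibitor Errfi1 and the ligand Tgfa and lowered the receptor Egfr and the ligands Areg, Hbegf and Nrg1 in both runs. In run 1, 2 of the 10 genes rose and 6 fell, where 7.74% of all genes tested were raised and 6.2% lowered. In run 2, 2 rose and 7 fell, against 14.9% raised and 16.7% lowered of all genes. Btc and Lrig1 passed the threshold in run 2 and not in run 1, and Ereg in run 1 and not in run 2, but only for Lrig1 was the difference between the runs called. The median log2 fold change of the 10 genes was −0.46 in run 1 and −0.36 in run 2, beside −0.00 and −0.01 over all genes. The sum of the 6 ligands per length went from 71.9 ± 1.4 to 50.9 ± 2.16 CPM per kb in run 1 and from 16.7 ± 1.3 to 11.9 ± 0.730 CPM per kb in run 2 (SD, n = 3).

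With the further demand of a log2 fold change of 1 or more in size, Areg and Tgfa were called in run 1 (2.01% of all genes), and Errfi1, Areg, Tgfa and Nrg1 in run 2 (4.49%).

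**Figure D2:**
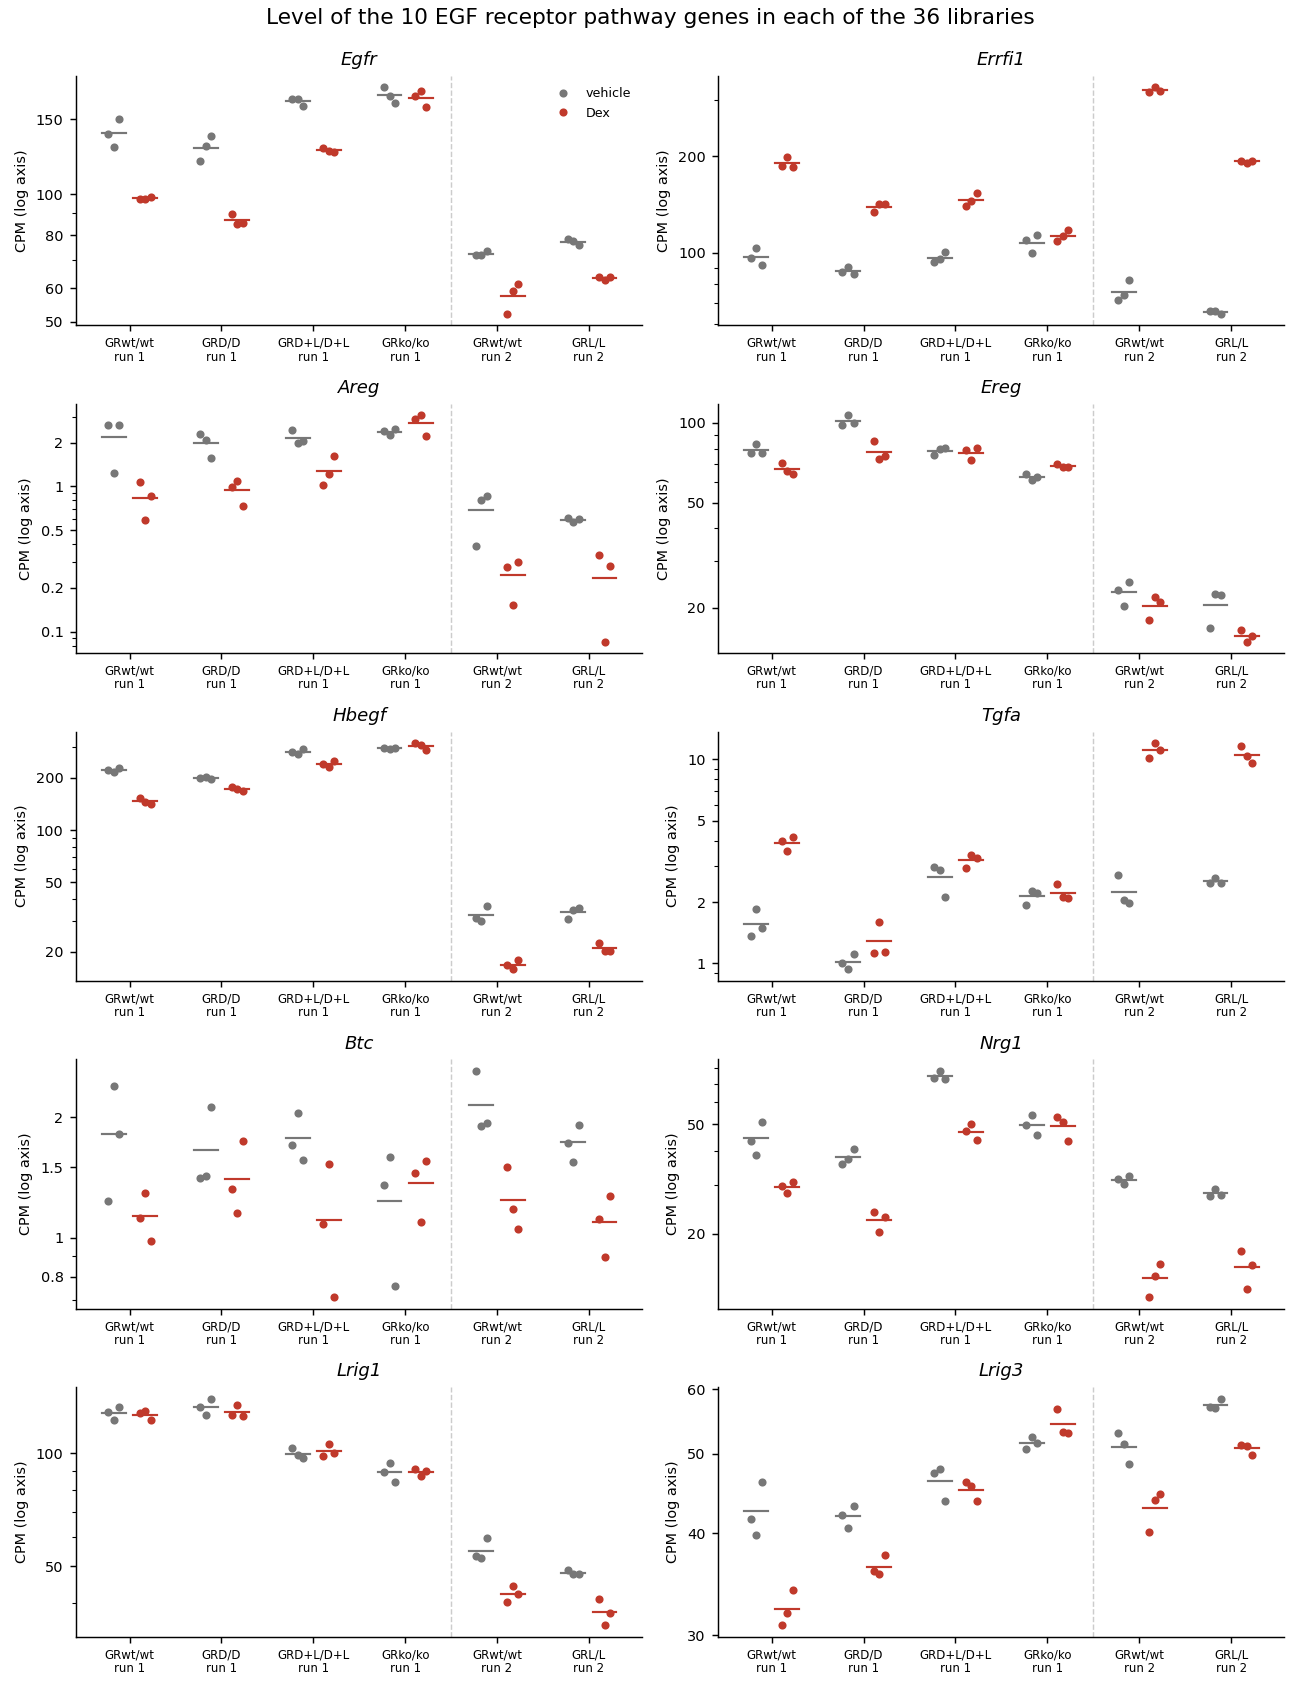
Level of each of the 10 genes in CPM (log axis) in every library, by genotype and run, with vehicle in grey and Dex in red; points are libraries and lines are means of 3, and the dashed line separates the runs. In both GRwt/wt sets the Dex libraries of Errfi1 and Tgfa lie above, and those of Egfr, Areg, Hbegf, Nrg1 and Lrig3 below, all vehicle libraries. In GRko/ko the treatments overlap for 8 genes. The share of all genes without overlap was not counted.

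Egfr, the receptor, was at 138, 129 and 150.4 CPM with vehicle and at 97.1, 97.4 and 98.5 CPM with Dex in GRwt/wt of run 1. In run 2 it was at 71.8, 71.8 and 73.5 CPM with vehicle and at 52.2, 59.0 and 61.5 CPM with Dex. The treatments did not overlap in either run. The log2 fold change was −0.51 ± 0.05 (SE, adjusted p = 1.65e-09) in run 1 and −0.33 ± 0.05 (adjusted p = 6.03e-06) in run 2. The difference between the runs was not called (0.18, 95% interval 0.03 to 0.34, adjusted p = 0.169). It was called without replicate 4 of the Dex libraries of run 2 (0.25, adjusted p = 0.0292). In bulk RNA, fewer cells of a type and less RNA per cell cannot be told apart.

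The fall in Egfr was also seen in the 3 point mutants. It was −0.57 ± 0.05 in GRD/D (adjusted p = 3.69e-10), from 119 to 137 CPM with vehicle to 84.8 to 89.8 CPM with Dex, and −0.38 ± 0.05 in GRD+L/D+L (adjusted p = 2.04e-06), from 161 to 168 CPM to 126 to 128 CPM. In GRL/L it was −0.28 ± 0.05 (adjusted p = 0.000102), from 75.8 to 78.5 CPM to 62.8 to 63.9 CPM. None of these responses was called different from that of GRwt/wt: the differences were −0.06 (95% interval −0.21 to 0.09) for GRD/D, 0.13 (−0.02 to 0.28) for GRD+L/D+L and 0.05 (−0.10 to 0.20) for GRL/L. In GRko/ko Egfr was at 164 to 179 CPM with vehicle and 160.3 to 175 CPM with Dex, a log2 fold change of −0.02 (95% interval −0.12 to 0.09).

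Errfi1, the inhibitor of the receptor's kinase, had the smallest adjusted p of the 10 genes in GRwt/wt of both runs. It was at 96.7, 103 and 91.9 CPM with vehicle and at 187, 198 and 186 CPM with Dex in run 1, and at 71.4, 73.7 and 82.2 CPM with vehicle and at 318, 328 and 319.6 CPM with Dex in run 2. All Dex libraries were thus far above the vehicle libraries. The log2 fold change was 0.97 ± 0.05 (1.96-fold, adjusted p = 2.61e-17) in run 1 and 2.09 ± 0.05 (4.25-fold, adjusted p = 6.21e-28) in run 2. The response was larger in run 2 by 1.12 on the log2 scale (95% interval 0.98 to 1.26, adjusted p = 6.61e-14), and it is also 2.15 in run 2 without replicate 6 of the vehicle libraries.

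All 3 point mutants raised Errfi1 less than GRwt/wt of their run did. In GRD/D the libraries were at 87.0, 90.1 and 86.2 CPM with vehicle and at 134, 142 and 142 CPM with Dex (0.67 ± 0.05, adjusted p = 2.97e-12), and in GRD+L/D+L at 93.6, 95.4 and 101 CPM and at 139.6, 145 and 154 CPM (0.60 ± 0.05, adjusted p = 9.62e-11). The Dex libraries of both mutants lay between the vehicle and the Dex libraries of GRwt/wt. The response was smaller than in GRwt/wt by −0.30 ± 0.07 in GRD/D (adjusted p = 0.00934) and by −0.37 ± 0.07 in GRD+L/D+L (adjusted p = 0.000989), and the 2 mutants differed by −0.07 (95% interval −0.21 to 0.08).

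In GRL/L Errfi1 was at 66.0, 65.8 and 64.6 CPM with vehicle and at 193, 191 and 194 CPM with Dex, a log2 fold change of 1.56 ± 0.05 (2.94-fold, adjusted p = 1.07e-23). This differed by −0.53 ± 0.07 from the response of GRwt/wt in run 2 (adjusted p = 4.97e-06), and −0.60 without replicate 6. With a model in which GRwt/wt of both runs share 1 response, the difference was 0.0098 and was not called. Errfi1 was the only one of the 10 genes whose response was called different in GRL/L, where 1.85% of all genes were. In GRko/ko, the 109, 100.2 and 113 CPM with vehicle overlapped the 109, 113 and 118 CPM with Dex (0.07, 95% interval −0.03 to 0.18).

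Per length of exon, the level of Errfi1 was 2.22 ± 0.301 times that of Egfr in vehicle-treated GRwt/wt of run 1 and 6.16 ± 0.247 times with Dex (SD, n = 3). In run 2 the ratio went from 3.31 ± 0.201 to 17.8 ± 1.43 in GRwt/wt and from 2.68 ± 0.0222 to 9.59 ± 0.0147 in GRL/L. It went from 2.16 ± 0.161 to 5.08 ± 0.326 in GRD/D and from 1.85 ± 0.114 to 3.65 ± 0.216 in GRD+L/D+L. In GRko/ko it was 1.99 ± 0.169 with vehicle and 2.12 ± 0.17 with Dex, a difference within the SDs.

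**Figure D3:**
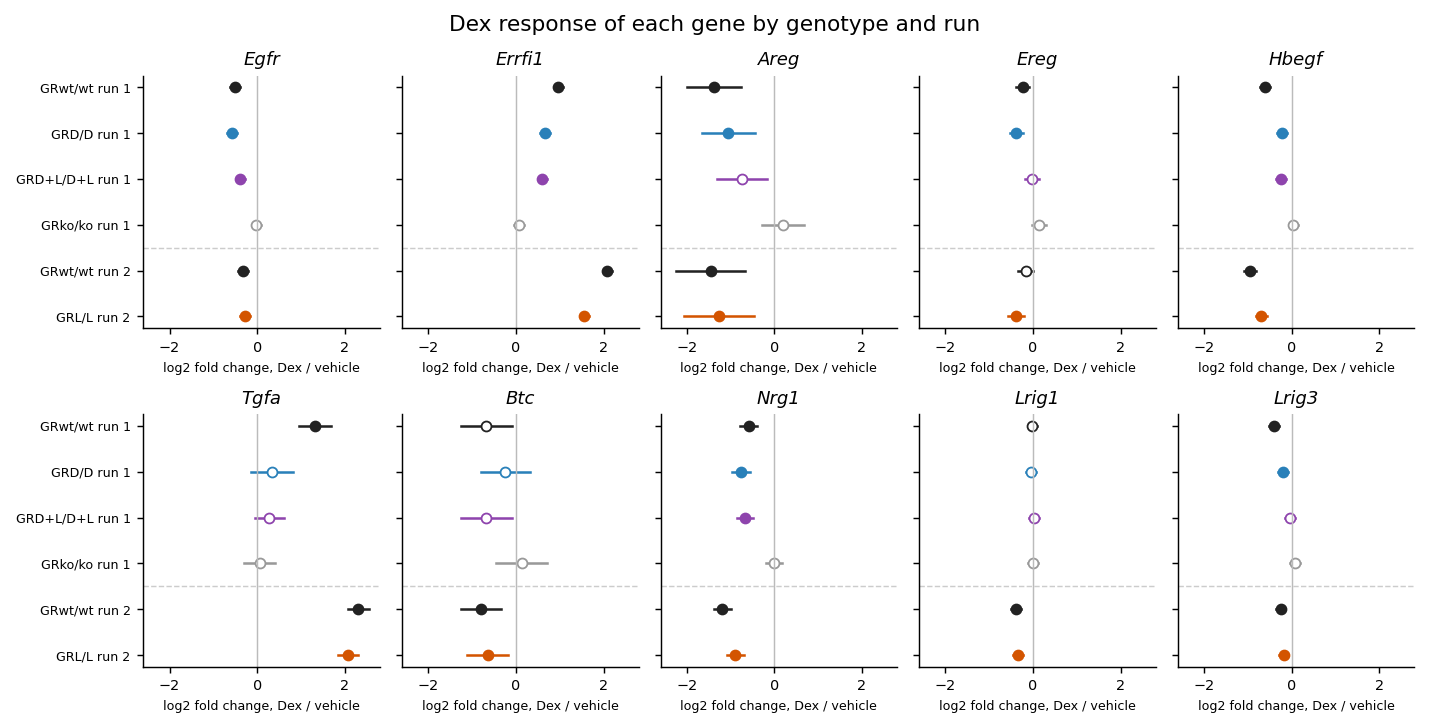
Log2 fold change of Dex against vehicle for each of the 10 genes by genotype and run, with 95% intervals; filled points passed an adjusted p of 0.05 and the dashed line separates the runs. Errfi1 rises everywhere but in GRko/ko, from 0.60 in GRD+L/D+L to 2.09 in GRwt/wt of run 2, and Tgfa rises in GRwt/wt and GRL/L only among the called points.

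Tgfa, the ligand with the lowest level per length in vehicle-treated GRwt/wt, showed the largest rise of the 10 genes in GRwt/wt and GRL/L. In GRwt/wt of run 1 it was at 1.36, 1.85 and 1.49 CPM with vehicle (21 to 27 counts) and at 3.96, 3.57 and 4.18 CPM with Dex (55 to 68 counts). In run 2 it was at 2.72, 2.04 and 1.97 CPM with vehicle and at 10.2, 12.1 and 11.1 CPM with Dex (258 to 317 counts). The treatments were well apart in both runs. The log2 fold changes were 1.32 ± 0.18 (2.49-fold, adjusted p = 3.45e-07) and 2.30 ± 0.12 (4.94-fold, adjusted p = 1.72e-18), and the difference between the runs was called (0.99 ± 0.22, adjusted p = 0.00314).

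GRL/L raised Tgfa to a similar level, from 2.47, 2.63 and 2.47 CPM to 11.7, 10.3 and 9.61 CPM, a log2 fold change of 2.06 ± 0.11 (4.17-fold, adjusted p = 5.16e-17). Its difference from GRwt/wt of the run was −0.24 (95% interval −0.58 to 0.10). In both genotypes of run 2 the share of Tgfa in the ligands per length went from 2.08% ± 0.433 in GRwt/wt and 2.45% ± 0.191 in GRL/L, to 14.4% ± 0.803 and 14.0% ± 0.928 (SD, n = 3). In run 1 its share went from 0.337% ± 0.0584 to 1.18% ± 0.107 in GRwt/wt.

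In the genotypes with the D mutation Tgfa was not called. In GRD/D Tgfa was at 1.00, 0.934 and 1.12 CPM with vehicle and at 1.12, 1.60 and 1.14 CPM with Dex, barely apart, a log2 fold change of 0.34 (95% interval −0.14 to 0.83, adjusted p = 0.465). In GRD+L/D+L it was at 2.95, 2.88 and 2.11 CPM and at 2.93, 3.38 and 3.30 CPM, a log2 fold change of 0.27 (95% interval −0.06 to 0.60, adjusted p = 0.542). The response differed from that of GRwt/wt by −1.05 ± 0.24 in GRD+L/D+L (adjusted p = 0.00702), and by −0.98 in GRD/D, which was not called (95% interval −1.59 to −0.36, adjusted p = 0.0931). With a model in which GRwt/wt of both runs share 1 response, the GRD/D difference was −1.68 (adjusted p = 0.000551). The counts behind these values are small, 15 to 25 per library in GRD/D and 31 to 53 in GRD+L/D+L.

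Hbegf (18:36504927-36515805, −), the main ligand by level in run 1, fell in every genotype that carried a receptor. In GRwt/wt it was at 222, 218 and 227 CPM with vehicle and at 153, 145 and 142 CPM with Dex in run 1, and at 31.4, 30.1 and 36.5 CPM and at 16.8, 15.8 and 17.9 CPM in run 2. The treatments did not overlap. The log2 fold change was −0.60 ± 0.05 (adjusted p = 6.15e-11) in run 1 and −0.95 ± 0.07 (adjusted p = 2.18e-14) in run 2. The larger fall in run 2 was called (−0.35 ± 0.09, adjusted p = 0.00697), but not without replicate 6 of the vehicle libraries of run 2 (−0.26, adjusted p = 0.0521).

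In GRD/D the fall in Hbegf was small, from 200.3, 204 and 198 CPM to 177, 173 and 168 CPM (−0.22 ± 0.05, adjusted p = 0.00595), and likewise in GRD+L/D+L, from 282, 273 and 295 CPM to 239.9, 231 and 249.8 CPM (−0.24 ± 0.05, adjusted p = 0.00353). Both differed from GRwt/wt, by 0.39 ± 0.08 (adjusted p = 0.00121) and 0.37 ± 0.08 (adjusted p = 0.00218), so the fall was smaller than in wild type. They differed from each other by −0.02 (95% interval −0.18 to 0.13). Hbegf shares chromosome 18 with Nr3c1, so in its differences between genotypes, also with vehicle, linked sequence cannot be told apart from the mutation. In GRL/L it fell from 30.8, 34.9 and 35.8 CPM to 22.5, 20.1 and 20.2 CPM (−0.69 ± 0.06, adjusted p = 7.68e-11). The difference from GRwt/wt of run 2 was not called (0.26, 95% interval 0.07 to 0.45, adjusted p = 0.181). GRko/ko libraries were at 294 to 299 CPM with vehicle and 288 to 318 CPM with Dex (0.04, 95% interval −0.07 to 0.15).

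Nrg1, the ligand of ErbB3 and ErbB4, fell in the same genotypes, without a called difference between a point mutant and wild type. It was at 43.6, 38.6 and 51.1 CPM with vehicle and at 29.9, 28.1 and 30.8 CPM with Dex in GRwt/wt of run 1 (−0.59 ± 0.10, adjusted p = 1.77e-05), and at 31.7, 30.3 and 32.3 CPM and at 11.7, 14.1 and 15.5 CPM in run 2 (−1.19 ± 0.10, adjusted p = 2.05e-12). The fall was larger in run 2 by −0.60 ± 0.14 (adjusted p = 0.00357). It was −0.76 ± 0.10 in GRD/D, −0.67 ± 0.09 in GRD+L/D+L and −0.89 ± 0.10 in GRL/L (adjusted p = 7.30e-07, 9.92e-07 and 3.71e-09), and −0.01 (95% interval −0.20 to 0.17) in GRko/ko. The differences from GRwt/wt were −0.18 (95% interval −0.46 to 0.11), −0.09 (−0.35 to 0.18) and 0.30 (0.02 to 0.58, adjusted p = 0.36).

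Areg was scarce, with 2 to 51 counts per library, yet it had the largest fall of the 10 genes in GRwt/wt. In GRwt/wt it was at 2.66, 1.23 and 2.66 CPM with vehicle and at 1.06, 0.583 and 0.860 CPM with Dex in run 1, and at 0.388, 0.802 and 0.854 CPM and at 0.277, 0.152 and 0.301 CPM in run 2. The lowest vehicle library was above the highest Dex library in both runs. The log2 fold changes were −1.38 ± 0.30 (adjusted p = 0.000944) and −1.46 ± 0.39 (adjusted p = 0.00374). It was −1.06 ± 0.30 in GRD/D (adjusted p = 0.0155), −1.27 ± 0.40 in GRL/L (adjusted p = 0.0190) and −0.74 in GRD+L/D+L, which was not called (95% interval −1.31 to −0.18, adjusted p = 0.143).

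With so few counts, single libraries decided calls of Areg. The call in GRD/D was lost without Dex replicate 3 (−0.91, adjusted p = 0.0851), vehicle replicate 1 (−0.95, adjusted p = 0.0535) or vehicle replicate 2 (−1.01, adjusted p = 0.0559), and that in GRL/L without Dex replicate 2, which held 2 counts (−0.92, adjusted p = 0.135). No difference of the Areg response between a point mutant and GRwt/wt was called, and the intervals were wide, from −0.56 to 1.2 for GRD/D, from −0.22 to 1.48 for GRD+L/D+L and from −1.01 to 1.38 for GRL/L. In GRko/ko it was at 2.41, 2.27 and 2.47 CPM with vehicle and at 2.90, 3.10 and 2.22 CPM with Dex (0.20, 95% interval −0.28 to 0.68).

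Ereg, the neighbour of Areg, was far more abundant and changed little. In GRwt/wt of run 1 it went from 77.2, 83.2 and 76.9 CPM to 70.8, 65.9 and 64.1 CPM (−0.24 ± 0.08, adjusted p = 0.0274), a call that was lost without Dex replicate 2 or 3 or vehicle replicate 2 (adjusted p = 0.0888, 0.128 and 0.133). In run 2 it went from 20.4 to 25.0 CPM to 18.0 to 21.9 CPM, which overlapped (−0.17, 95% interval −0.34 to 0.00, adjusted p = 0.125). It fell in GRD/D by −0.38 ± 0.07 and in GRL/L by −0.39 ± 0.09 (adjusted p = 0.000307 and 0.000949), and its value in GRD+L/D+L was −0.02 (95% interval −0.17 to 0.13). No response of a point mutant was called different from GRwt/wt, nor that of GRD+L/D+L from GRD/D (0.36, adjusted p = 0.176).

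Btc, the third of the neighbours, had 11 to 74 counts per library. It fell in GRwt/wt of run 2, from 2.61, 1.90 and 1.93 CPM to 1.5, 1.18 and 1.05 CPM (−0.79 ± 0.23, adjusted p = 0.00637), a call that was lost without vehicle replicate 4 (−0.62, adjusted p = 0.0640). In GRL/L the fall was at the threshold (−0.64 ± 0.23, adjusted p = 0.0492) and was lost with any of the 6 GRL/L libraries left out and with DESeq2 (adjusted p = 0.0622). It was −0.67 in GRwt/wt of run 1 (95% interval −1.25 to −0.10, adjusted p = 0.122), −0.24 in GRD/D, −0.68 in GRD+L/D+L and 0.14 in GRko/ko, none of them called.

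Lrig1 and Lrig3 behaved unlike each other in GRwt/wt of run 1, where only Lrig3 fell, whereas both fell in run 2. Lrig3 fell in GRwt/wt of run 1 from 41.7, 39.7 and 46.2 CPM to 30.9, 31.9 and 34.1 CPM (−0.40 ± 0.06, adjusted p = 1.37e-06), and in run 2 from 52.9, 51.5 and 48.6 CPM to 40.1, 43.9 and 44.7 CPM (−0.25 ± 0.05, adjusted p = 0.000148). The fall was −0.21 ± 0.06 in GRD/D (adjusted p = 0.0116), a call that was lost without Dex replicate 2 (adjusted p = 0.0658) and with no filter on low counts (adjusted p = 0.0641), and −0.18 ± 0.05 in GRL/L (adjusted p = 0.00727). In GRD+L/D+L it was −0.04 (95% interval −0.15 to 0.07), and this response differed from GRwt/wt by 0.36 ± 0.08 (adjusted p = 0.00362).

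Lrig1 was at 122 to 133 CPM with vehicle and 123 to 129.5 CPM with Dex in GRwt/wt of run 1 (−0.01, 95% interval −0.12 to 0.09). In run 2 it fell, from 53.2, 52.7 and 59.5 CPM to 40.2, 44.2 and 42.3 CPM in GRwt/wt (−0.38 ± 0.06, adjusted p = 9.14e-07) and from 47.6 to 49.0 CPM to 34.9 to 40.9 CPM in GRL/L (−0.35 ± 0.06, adjusted p = 1.10e-05). The difference between the runs of GRwt/wt was called (−0.37 ± 0.08, adjusted p = 0.00129). In GRD/D, GRD+L/D+L and GRko/ko its log2 fold changes were −0.05, 0.02 and −0.00, none of them called.

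Counted over the genotypes, 1 of the 10 genes rose and 6 fell in GRD/D, against 5.63% of all genes raised and 6.24% lowered, and 1 rose and 3 fell in GRD+L/D+L, against 3.08% and 1.92%. In GRL/L 2 rose and 8 fell, against 8.79% and 10.4%. With a log2 fold change of 1 or more in size, Areg was called in GRD/D (0.981% of all genes), 0 genes of the set in GRD+L/D+L (0.4%), and Errfi1, Areg and Tgfa in GRL/L (2.56%). In GRko/ko edgeR called 0 of the 10 genes and 0 of all genes in either direction (0% with any of these thresholds). At an unadjusted p under 0.05 it was 0 of the 10 and 859 of all genes, DESeq2 called 1 gene outside the set, and edgeR without a filter on low counts called 110 genes, also outside the set. In GRko/ko all Dex libraries of Ereg and of Lrig3 were above the vehicle libraries, by 0.14 (95% interval −0.02 to 0.29) and 0.08 (−0.03 to 0.18). Neither was called, and the other 8 genes overlapped. The share of all genes whose libraries separate in this way was not counted.

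Responses that differed from wild type were tested as interactions. For GRD/D, Errfi1 and Hbegf were called (3.29% of all genes), and for GRD+L/D+L Errfi1, Hbegf, Tgfa and Lrig3 (3.23%). For GRL/L it was Errfi1 alone. For GRko/ko 8 genes were called, all but Btc and Lrig1 (8.48% of all genes). Between GRD+L/D+L and GRD/D edgeR called 0 of the 10 genes and 12 of all genes (0.0775%). Egfr, Ereg and Lrig3 had an unadjusted p under 0.05 there, with differences of 0.19, 0.36 and 0.17 on the log2 scale, and DESeq2 called none of the 7 that it gave an adjusted p, these 3 among them, and 58 of all genes. Between the runs of GRwt/wt 5 genes were called, Errfi1, Hbegf, Tgfa, Nrg1 and Lrig1 (7.09% of all genes).

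**Figure D4:**
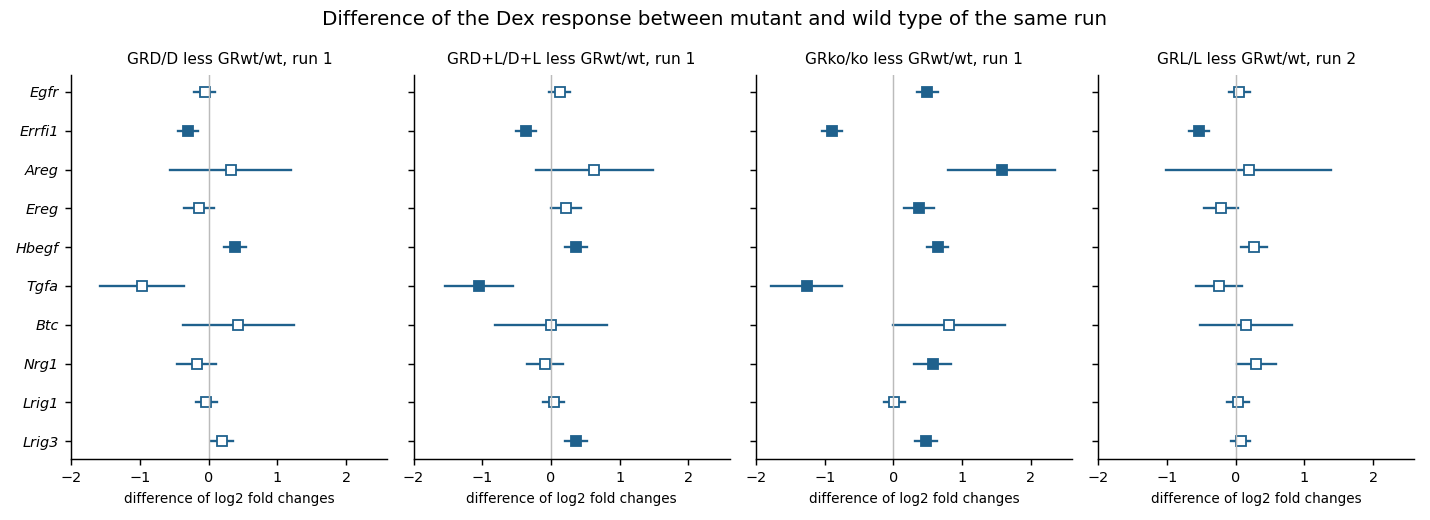
Difference of the Dex log2 fold change between each mutant and GRwt/wt of the same run for the 10 genes, with 95% intervals; filled squares passed an adjusted p of 0.05. Errfi1 lies below 0 in all 4 panels, from −0.30 in GRD/D to −0.90 in GRko/ko, and the widest intervals are those of the low-count genes Areg, Btc and Tgfa.

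Without Dex, the 3 mutants of run 1 had different profiles. In GRD/D only Ereg was called, higher at 97.8 to 107 CPM against 76.9 to 83.2 CPM in GRwt/wt (0.36 ± 0.07, adjusted p = 0.000716), where 9.55% of all genes were called. In GRD+L/D+L 5 genes were called, where 29.9% of all genes were. Nrg1 was higher, at 73.1 to 78.3 CPM against 38.6 to 51.1 CPM (0.75 ± 0.09, adjusted p = 2.26e-08), as were Tgfa (0.76 ± 0.19), Hbegf (0.35 ± 0.05) and Egfr (0.25 ± 0.05), and Lrig1 was lower (−0.36 ± 0.05).

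In GRko/ko 6 genes were called, where 45.7% of all genes were. Hbegf (0.42 ± 0.05, adjusted p = 3.63e-08), Egfr (0.30 ± 0.05) and Lrig3 (0.28 ± 0.05) were higher, and Lrig1 (−0.52 ± 0.05, adjusted p = 3.01e-10) and Ereg (−0.34 ± 0.08) lower. The higher level of Errfi1 (0.15 ± 0.05, adjusted p = 0.0208) was no longer called without GRko/ko replicate 1 or 3 or GRwt/wt replicate 1 or 3, nor with no filter on low counts. Hbegf, Egfr and Lrig1 moved the same way in GRD+L/D+L and in GRko/ko. The summed macrophage markers were below those of GRwt/wt in GRD+L/D+L and above them in GRko/ko, while the skeletal muscle markers (126 to 144 and 71.8 to 74.3 CPM) and the cartilage markers (27.8 to 30.6 and 179.9 to 551 CPM) were above them in both. The part of these cells in the vehicle levels was not tested.

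In GRL/L Errfi1 (−0.21 ± 0.05, adjusted p = 0.00427) and Lrig1 (−0.19 ± 0.05, adjusted p = 0.0155) were lower and Lrig3 (0.17 ± 0.05, adjusted p = 0.0168) higher, where 11.3% of all genes were called. None of the 3 was called without replicate 6 of the GRwt/wt vehicle libraries, the one with keratin counts, at −0.15, −0.14 and 0.14 (adjusted p = 0.0773, 0.158 and 0.120). The call of Lrig1 was also lost without GRL/L replicate 2 or 3 (adjusted p = 0.0511 and 0.0510) and in a fit of run 2 alone (adjusted p = 0.0568), and that of Lrig3 without GRL/L replicate 3 (adjusted p = 0.0688) and with no filter on low counts (adjusted p = 0.121). With GRwt/wt of both runs in 1 response, neither was called (adjusted p = 0.346 and 0.0571), and both kept their direction in each of these fits.

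Around these 10 genes, the other parts of the pathway were taken from lists. Of 8 further receptors and ligands, Erbb2, Erbb3, Erbb4 and Egf could be tested, and none was called in GRwt/wt. Erbb2, the partner of the other ErbB receptors, had the smallest adjusted p in run 1 (0.08, adjusted p = 0.403) and Erbb4 in run 2, where it held 2 to 9 counts per GRwt/wt library (−1.19, adjusted p = 0.132). Erbb2 rose in GRD/D (0.19, adjusted p = 0.0244). Of 4 genes of ligand shedding, Rhbdf1, a regulator of the protease Adam17, rose in run 1 (0.23 ± 0.05), and Rhbdf2, a second one, and Adam10 fell in run 2 (−0.38 and −0.16). Of all genes, 7.74% were raised and 6.2% lowered in run 1, and 14.9% and 16.7% in run 2.

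Of 10 genes of receptor turnover and inhibition, 2 fell and 0 rose in GRwt/wt of run 1 (6.2% and 7.74% of all genes), and 4 fell and 1 rose in run 2 (16.7% and 14.9%). The one with the smallest adjusted p in both runs was Socs5, a suppressor of cytokine signalling that also acts on the EGF receptor, at −0.66 and −0.60 (adjusted p = 6.23e-17 and 6.88e-17). Socs5 also fell in GRD/D (−0.49), GRD+L/D+L (−0.42) and GRL/L (−0.40), and its value in GRko/ko was 0.06. Of 16 adaptor and RAS-ERK core genes, 1 rose and 1 fell in run 1 and 1 rose and 6 fell in run 2, against the same shares of all genes. Eps8, a substrate of the receptor that binds actin regulators, had the smallest adjusted p in both, at −0.55 and −0.77.

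Feedback genes and target genes of ERK signalling were mostly lower with Dex in wild type. Of 15 such genes, among them the Sprouty and Spred inhibitors, 0 rose and 11 fell in GRwt/wt of each run and in GRL/L. Of all genes, 6.2%, 16.7% and 10.4% were lowered and 7.74%, 14.9% and 8.79% raised in these comparisons. The medians of the 15 genes were −0.40, −0.45 and −0.43 on the log2 scale, beside −0.00, −0.01 and −0.01 over all genes. Spry2 had the smallest adjusted p in run 1 (−0.74, adjusted p = 6.26e-11) and Ier3 in run 2 (−0.86, adjusted p = 1.66e-11). In GRD/D 4 fell and 1 rose (median −0.06), against 6.24% of all genes lowered and 5.63% raised. In GRD+L/D+L 6 fell and 1 rose (median −0.22), against 1.92% and 3.08%, and in GRko/ko 0 changed. The gene that rose in GRD/D and GRD+L/D+L was Dusp5, a nuclear ERK phosphatase, by 0.43 and 0.24. It fell in GRwt/wt of run 1 by 0.25.

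**Figure D5:**
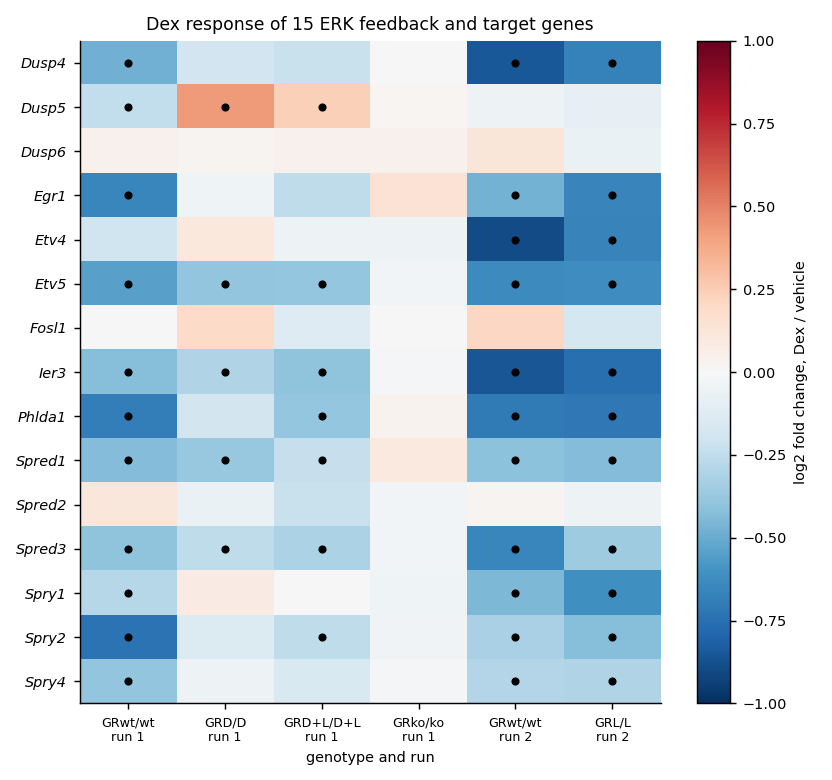
Log2 fold change of Dex against vehicle (colour, from −1 in blue to 1 in red) of 15 ERK feedback and target genes in each genotype and run; dots mark an adjusted p of at most 0.05. The dots number 11 in each GRwt/wt column and in GRL/L, 5 in GRD/D, 7 in GRD+L/D+L and 0 in GRko/ko.

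Across the 12 groups, with each group mean taken relative to the mean of its run, the genes whose log2 level went most like that of each member were read as a description. The measure is Pearson's r over 12 groups, which share libraries and runs. For Errfi1 they were B4galnt1 (r = 0.985), Fhl5 (0.978) and S100a10 (0.976), and for Tgfa Pdk4 (0.971), Aldh1a7 (0.957) and Spsb1 (0.957). For Hbegf they included Tgif1 (0.980) and Relb (0.976), for Areg they were Vcam1 (0.971), Lef1 (0.970) and Clcf1 (0.970), and for Egfr Grem1 (0.959), Mkx (0.953) and Fbxo7 (0.950). For Nrg1 they were Hoxc5 (0.966), Lgr6 (0.962) and Micu3 (0.952), and for Lrig3 Myo1e (0.968), Arhgef10l (0.965) and Apln (0.960). Among the members themselves, Hbegf and Lrig3 were the closest pair (0.910) and Errfi1 and Tgfa stood at 0.851.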

How the data were processed

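RNA-seq was made from total RNA of MEFs by the authors with a Truseq kit. They mapped reads to mm10 and kept uniquely mapped ones; the submitters' processing notes name HISAT2 2.1.0 and featureCounts 2.0.0. The deposited values are raw counts per gene, without normalization. The annotation and strand setting of the counting are not given in the sources used here.

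Libraries were grouped by genotype, treatment and run from the labels. The 10 genes and all lists were chosen with earlier results of these data known. Symbols, positions and exon lengths come from GENCODE M21. Of 55487 genes, 22903 had 0 counts in every library, and filterByExpr kept 15489, with 99.93% of counts.

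One edgeR 4.0.16 model (limma 3.58.1, R 4.3.3) with a term for each of 12 groups, TMM factors of 0.917 to 1.11 and a biological coefficient of variation of 0.0513 was fitted. Contrasts were tested by the quasi-likelihood F test with Benjamini-Hochberg adjustment over all genes tested. Standard errors are the log2 fold change divided by the root of F, and the 95% intervals are not adjusted. The study used DESeq2 with a run term and 1 GRwt/wt response. The median library total was 16579210.5 counts in run 1 and 24827607.5 in run 2, and low counts limit Areg, Btc and Tgfa. Between libraries of a group the median chi-square per gene was 1.38 to 6.03 times that of counting noise, so none was a copy. Pairs with Dex replicate 4 of GRwt/wt in run 2 had the highest ratios, 5.48 and 6.03, against 1.59 for the pair without it. Replicate numbers were not taken to pair libraries: same-numbered vehicle and Dex libraries had correlations of their deviations of −0.079 to 0.116, and no source ties the numbers to a culture.

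Alternatives were DESeq2 1.42.0, DESeq2's size factors, no filter (32584 genes), a minimum of 10 counts per library (11959 genes), the study's formula, fits within 1 run, a log2 fold change of 1 or more in size, the replicate number as a block, CPM without TMM, and each library left out in turn. The procedure was also tested on simulated data.

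Named are the 10 genes, Nr3c1, Fkbp5, Tsc22d3 and Dusp1. In each pathway list, genes called with a log2 fold change of 1 or more in size in any Dex response and the gene with the smallest adjusted p in each GRwt/wt run are named. The 3 genes with the highest r are named for each member called in both GRwt/wt runs. One of those for Hbegf is not reported here. Adam10, Erbb2 in GRD/D and Dusp5 were named after their values were seen. Promoter windows and their motifs come from RefSeq (GRCm38.p6), and figures were drawn with matplotlib.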

Additional observations from a re-analysis of the deposited data

Results flagged for a closer look

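Responses to Dex that differed between genotypes of a run, or between the runs of GRwt/wt, by the interaction test are listed here with the difference of the log2 fold changes. The 3 mutants of run 1 share GRwt/wt libraries, so their differences are not independent.

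The response of Errfi1 was smaller than in GRwt/wt by −0.30 in GRD/D, −0.37 in GRD+L/D+L, −0.90 in GRko/ko and −0.53 in GRL/L. The fall in Hbegf was smaller by 0.39 in GRD/D, 0.37 in GRD+L/D+L and 0.64 in GRko/ko. Tgfa differed by −1.05 in GRD+L/D+L and −1.26 in GRko/ko, and Lrig3 by 0.36 and 0.47 in the same genotypes.

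In GRko/ko alone among the mutants of run 1 the difference from GRwt/wt was called for Egfr (0.49), Areg (1.58), Ereg (0.38) and Nrg1 (0.57). Ereg in GRko/ko was not called without GRwt/wt Dex replicate 3 or vehicle replicate 2.

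Between the runs of GRwt/wt, run 2 less run 1, the response differed by 1.12 for Errfi1, −0.35 for Hbegf, 0.99 for Tgfa, −0.60 for Nrg1 and −0.37 for Lrig1. The runs were separate experiments, and run, cultures and depth cannot be told apart here.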

How the results depend on the processing

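Under the alternatives, 2293 values of the 10 genes stayed on the same side of the threshold, and those called kept their direction. A further 37 lost their call, 26 gained one, and 1 called value reversed. Values not called in either fit could change sign and still count among the 2293. For Areg, the difference of GRL/L from GRwt/wt went from 0.19 to −0.0084 without the GRwt/wt vehicle library that held keratin counts. The number of genes called stayed within 1.5 times in 226 fits and moved in 28.

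With a log2 fold change of 1 or more in size demanded as well, 2 of the 10 genes were called in GRwt/wt of run 1, 1 in GRD/D, 0 in GRD+L/D+L, 4 in GRwt/wt of run 2 and 3 in GRL/L. The differences from GRwt/wt then numbered 0 for GRD/D, 1 for GRD+L/D+L, 2 for GRko/ko and 0 for GRL/L, and 1 between the runs, and the vehicle levels 0 in GRD/D, GRD+L/D+L, GRko/ko and GRL/L, which follows from the added demand. In the study's formula GRwt/wt of both runs share 1 response, so its larger Errfi1 response in run 2 is averaged with that of run 1. The Errfi1 difference of GRL/L was then 0.0098, and 0 differences of GRL/L were called (115 of all 15489 genes). That formula called 3 vehicle levels in GRD/D and 1 in GRL/L, against 1958 and 1944 of all genes. Without a filter on low counts 1 gene (Ereg) differed between GRD+L/D+L and GRD/D, where 87 of all 32584 genes did. Of the vehicle levels in GRD/D, 1 was called in the fit reported (1479 of all 15489 genes) and 3 with DESeq2 (1475). With DESeq2 size factors 2 were called (1440), as within 1 run (1453) and without a filter (1470 of 32584). A minimum of 10 counts, where 9 genes were tested, without Areg, also gave 2 (1195 of 11959). The cause was not tested. With 1 library left out at a time, 1 to 2 vehicle levels were called in GRD/D and 0 to 3 in GRL/L.

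A fit that adds the replicate block called 8, 7, 4, 0, 9 and 10 genes in the Dex responses of GRwt/wt run 1, GRD/D, GRD+L/D+L, GRko/ko, GRwt/wt run 2 and GRL/L, and changed no call of the 10 genes. Of all 15489 genes it called 2021, 1775, 739, 0, 4762 and 2881, in the same order. Every library correlated best with its own number only in GRD+L/D+L. CPM without TMM moved the 120 group means by −7.97% to 10.6%, 55 of them by more than 1 SD.

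With 2 to 51 counts of Areg, 11 to 74 of Btc and 15 to 317 of Tgfa per library, small differences in these ligands could not be detected.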
